A study of Arabidopsis thaliana with 16 samples.

Results

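The 10 genes described here are SPL2, SPL3, SPL4, SPL5, SPL6, SPL9, SPL10, SPL11, SPL13 and SPL15, which encode SQUAMOSA PROMOTER BINDING PROTEIN-LIKE transcription factors. They were taken by locus identifier from the RefSeq annotation of TAIR10.1 and are 10 of 27432 nuclear protein-coding genes. A DAP peak was counted for a gene when any part of it lay between 3000 bp upstream of the gene start and 1000 bp past the gene end. The peaks came from DAP-seq, in which a tagged transcription factor made in vitro captures fragments of purified genomic DNA, so that the DNA keeps its methylation but carries no chromatin. The baits were 3xFLAG-PLT3, 3xFLAG-PLT5 and 3xFLAG-PLT7, PLETHORA (PLT) proteins of the AP2 class, and 3xFLAG-GFP as the control. The DNA came from Col-0 shoot apical meristems (SAM) of seedlings aged 9 days, or from Col-0 inflorescence meristems (IM) of plants aged 4 to 8 weeks, about 500 meristems per replicate. All plants were wild type, and each bait was used on both DNA sources in 2 replicates, giving 16 libraries in 8 groups.

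The small members were SPL3 (AT2G33810, chr2:14305001-14306072, plus strand), SPL4 (AT1G53160, chr1:19806263-19807705, plus strand) and SPL5 (AT3G15270, chr3:5140365-5142323, minus strand). SPL2 (AT5G43270, chr5:17360287-17363880, minus strand), SPL10 (AT1G27370, chr1:9505112-9508542, minus strand) and SPL11 (AT1G27360, chr1:9500892-9504023, plus strand) formed another group. SPL9 (AT2G42200, chr2:17587169-17589671, plus strand) and SPL15 (AT3G57920, chr3:21444243-21446035, minus strand) were taken as a pair. SPL6 (AT1G69170, chr1:26005068-26007368, plus strand) and SPL13 (AT5G50570, chr5:20582083-20584721, minus strand) completed the set.

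In Arabidopsis, SPL proteins promote the change from the juvenile to the adult phase and the onset of flowering. Young plants hold most of these genes down through the microRNA miR156, which pairs with a site in the SPL transcript and declines as the plant ages. SPL3, SPL4 and SPL5 are the small members with the site in the 3′ untranslated region, whereas the other members carry it in the coding sequence. SPL9 and SPL15 are close relatives that act in phase change and flowering, and SPL2, SPL10 and SPL11 form another related group.

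The sequences shown first are the miR156 sites that define the members and the best PLT motif matches at their peaks. The mature miR156a, read from the annotated precursor at chr2:10676534-10676553 on the minus strand of TAIR10.1, is printed with its seed in capitals.
miR156a: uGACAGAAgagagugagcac
The best match to its complement in each gene is printed below on the gene's own strand, for the gene classes that differ. Bases identical to the exact complement are in capitals and all others, counted as mismatches, in lower case. A G:U pair was thus counted as a mismatch.
SPL10, chr1:9505541-9505560, minus strand: GTGCTCtCTCTCTTCTGTCA
SPL3, chr2:14305878-14305897, plus strand: tTGCTtACTCTCTTCTGTCA
SPL5, chr3:5140598-5140617, minus strand: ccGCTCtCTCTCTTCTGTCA
SPL2, SPL6, SPL9, SPL11, SPL13 and SPL15 held the same site as SPL10, with 19 of 20 bases matched and 1 mismatch. The sites of SPL3 and SPL4 matched at 18 of 20 bases and that of SPL5 at 17, and all 3 lay in the 3′ untranslated exon. In the 6 other SPL genes of the list without a miR156 site the best match reached 12 to 14 of 20 bases.

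Motif matches are shown for the 6 regions that all PLT3 and PLT7 libraries held. Each is the best 16-base match to the PLT motif, in capitals within 30 bases, 5′ to 3′ on the strand of the match. A match does not show binding. The summit of the SPL5 downstream region lay in the AT3G15260 intron and that of the SPL11 upstream region in the AT1G27350 intron.
SPL10 exon, chr1:9506646-9506675, minus strand: tgaaaccATCCACAGCTCTCGAGgtaccta
SPL11 exon, chr1:9502461-9502490, plus strand: tgaaggcTCCCACAGCTCTCGAGgtatccg
SPL11 upstream, chr1:9499045-9499074, plus strand: agctaatCTGTTCAAATTTCGAAaacagat
SPL6 upstream, chr1:26004442-26004471, plus strand: ctatataAAATACGCTTCCCCATgttgtgt
SPL15 upstream, chr3:21446693-21446722, minus strand: taaatatTTGTTCAATTATCAAGaaagatt
SPL5 downstream, chr3:5139046-5139075, minus strand: tttgtggTATCACAAATTCCAACaagtata

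The 16 libraries held 128 peaks in the windows of the 10 genes, 117 from PLT libraries and 11 from GFP libraries. Summits of PLT peaks linked at gaps of at most 100 bp gave 22 regions. Of these, 16 were reproducible in at least 1 of the 6 PLT datasets, where a dataset is 1 bait on 1 DNA source and reproducible means an IDR below 0.05 between replicates with no GFP peak of the same tissue over it. A reproducible peak was placed in a region by its replicate 1 summit. SPL11 had 29 PLT peaks in its window and SPL2 had 20, while SPL5 and SPL9 had 6 each and SPL13 had none. The map of summits shows that the peaks stacked at the same position in different libraries.

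**Figure D1:**
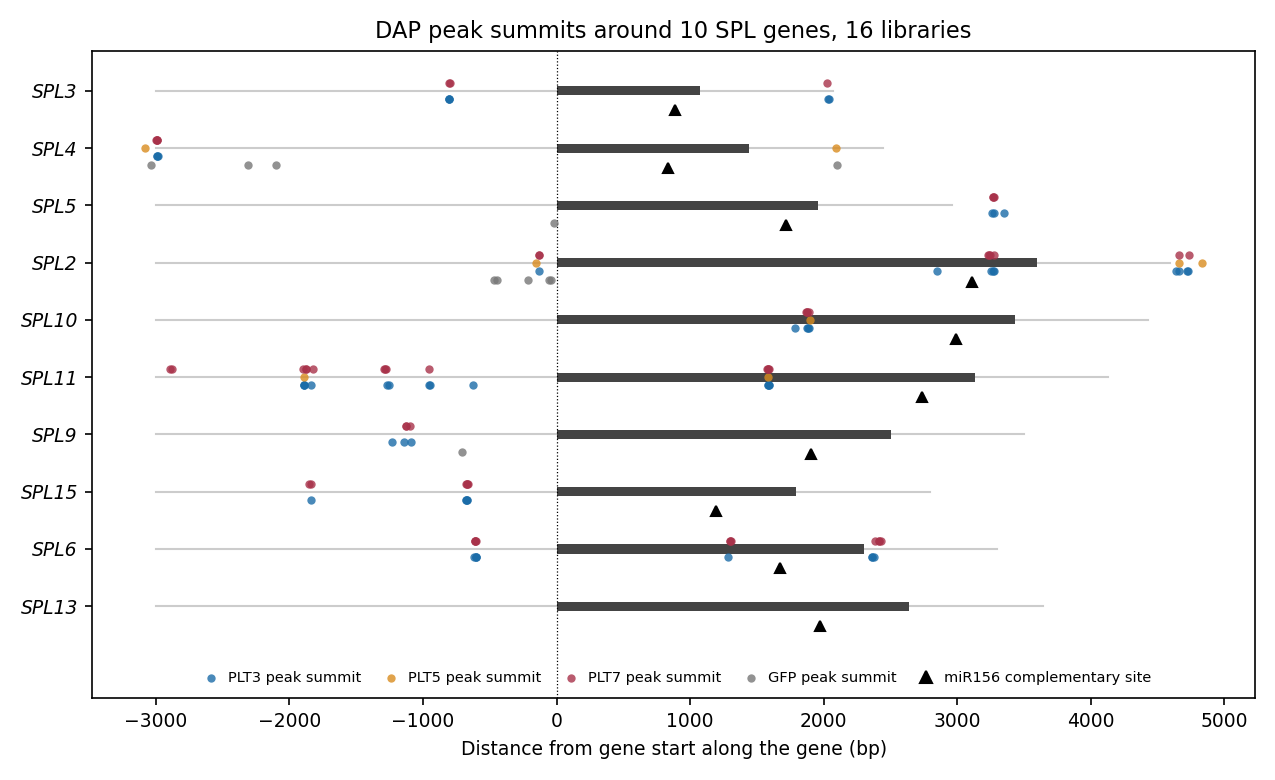
Each dot is a peak summit of 1 of the 16 libraries, placed by its distance in bp from the gene start along the gene (x axis), for the 10 SPL genes (rows). Dark bars are gene bodies, grey lines the searched windows and triangles the miR156 complementary sites; SPL10 and SPL11 have a stack inside the gene body, SPL6 and SPL15 a stack 612 and 674 bp before the start, and SPL13 has no dot.

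A reproducible peak was assigned to 5 of 10 members with PLT3 on SAM DNA, beside 59.4% of all protein-coding genes by the same rule, and to 8 of 10 with PLT3 on IM DNA, beside 64.6%. PLT7 gave 8 of 10 on SAM DNA, beside 71.9%, and 6 of 10 on IM DNA, beside 78.0%. PLT5 gave 0 of 10 on either DNA, beside 2.13% of genes on SAM DNA and 8.16% on IM DNA. These shares lie around those of all genes, so the counts by themselves set the members apart from no other gene. The median window was 6402 bp for the members and 6078 bp for all genes. Within 1500 bp upstream and 500 bp downstream of the gene start the members called fell to 3, 5, 4 and 3 for PLT3 SAM, PLT3 IM, PLT7 SAM and PLT7 IM, beside 28.5%, 31.0%, 37.3% and 42.0% of all genes. PLT5 stayed at 0 in this window, beside 0.795% of genes on SAM DNA and 3.11% on IM DNA.

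**Figure D2:**
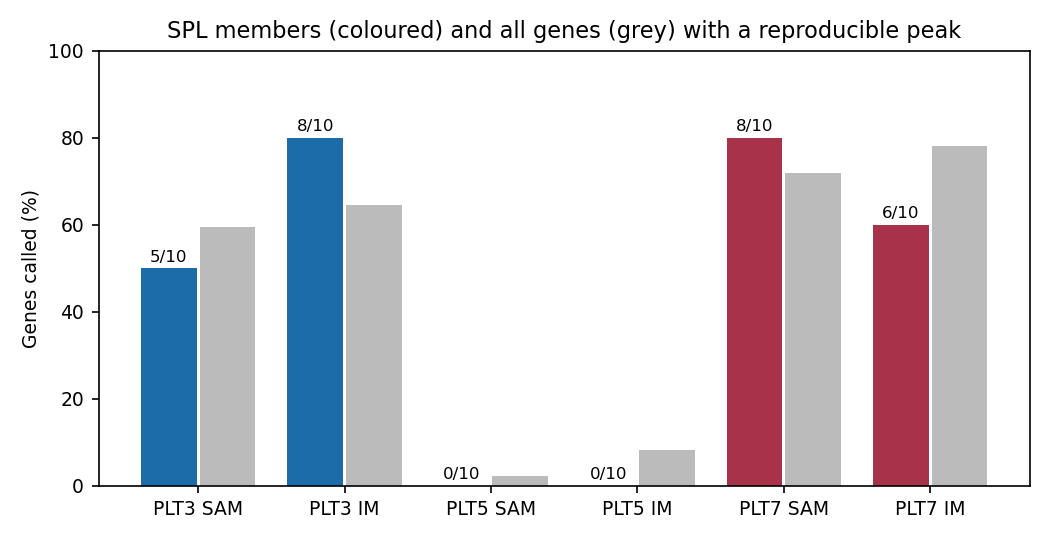
Percent of genes called (y axis) in each of the 6 PLT datasets (x axis), for the 10 SPL members in colour with their count above, and for all 27432 protein-coding genes in grey. The members range from 0 of 10 with PLT5 to 8 of 10 with PLT3 on IM DNA and PLT7 on SAM DNA.

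SPL6, SPL10, SPL11 and SPL15 were called in all 4 PLT3 and PLT7 datasets. SPL2 and SPL5 were called with PLT3 on IM DNA and with PLT7 on both DNA sources. SPL9 was called with PLT3 on IM DNA and PLT7 on SAM DNA, SPL4 with PLT3 and PLT7 on SAM DNA, and SPL3 with PLT3 on IM DNA alone. SPL13 was called in none.

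The closely related genes SPL10 and SPL11, which are neighbours on chromosome 1 and are transcribed towards each other, each held a PLT peak inside the gene. In SPL10 the summit lay 1877 bp after the gene start and 1553 bp before the gene end, in a coding exon. In SPL11 it lay 1581 bp after the start and 1550 bp before the end, also in a coding exon. Their search windows overlapped by 912 bp, and no peak was counted for both.

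At the SPL10 exon the fold enrichment, which is the stacked fragments at the summit over the local background after adding 1 to each, was 3.08 and 2.89 with PLT3 on SAM DNA and 3.34 and 3.50 on IM DNA. PLT7 gave 5.66 and 4.33 on SAM DNA and 4.85 and 5.40 on IM DNA, all above the 4 PLT3 libraries. The summits rested on 71 to 130 stacked fragments. These values carry the overall level of each library, which was higher for PLT7 at most shared sites.

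At the SPL11 exon PLT3 gave 2.25 and 2.73 on SAM DNA and 2.74 and 2.16 on IM DNA, and the peak was reproducible with neither PLT3 dataset. PLT7 gave 3.46 and 3.28 on SAM DNA and 3.98 and 4.26 on IM DNA, again above every PLT3 library and reproducible on both DNA sources. The SPL10 peak was the taller of the pair in each of the 8 libraries. Among the 12075 regions held by all 8 libraries, the SPL10 exon stood above 55.6% in mean PLT7 enrichment and the SPL11 exon above 24.3%.

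The best PLT motif matches of the 2 exons, printed above and called sites here, were identical at 14 of 16 bases. They differed as A1T and T2C, written with the SPL10 base, the position counted from the 5′ end of the site, and the SPL11 base. Between the 2 exons 24 of 31 bases (77.4%) around the site were identical, and 181 of 201 (90.0%) over the wider window. The shared run CCACAGCTCTCGAGGTA of 17 bases occurred at 2 places on the 5 nuclear chromosomes on either strand, both of them these exons, and PLT peaks of 9 libraries covered each. The run was picked as the longest identical stretch around the 2 sites. Its place under these peaks therefore follows from that choice. The miR156 site lay 1110 bp further along SPL10 and 1152 bp further along SPL11, in another part of the gene, and no peak of any library covered it.

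SPL11 also held 3 reproducible peak regions upstream, at summits 1874, 1281 and 952 bp before its start. All 3 were nearer to the start of the neighbouring gene AT1G27350, the first in its intron 621 bp after its start, the second in its 5′ untranslated exon 28 bp after its start and the third 301 bp before its start. They can therefore be counted for either gene. The PLT3 calls of SPL11 rested on these upstream regions alone, with the region 952 bp before the start reproducible on SAM DNA and the other 2 on IM DNA. Each call was placed by the summit of replicate 1. On SAM DNA, with PLT3 and with PLT7, the replicate 2 summit lay at the region 1281 bp before the start. With PLT3 on IM DNA the order was reversed, so no dataset had both replicate summits 952 bp before the start. Peaks of these 2 regions overlapped, yet they count as 2 of the 16. The region 28 bp after the AT1G27350 start carried the highest motif score of all 16 reproducible regions, 13.9 bits, above 97.9% of PLT7 IM summits.
AT1G27350 5′ exon, chr1:9499599-9499628, minus strand: tccgacgAGTCTCAATTCTCGAGccttctc
There PLT7 gave 3.69 in SAM replicate 2 and 4.98 and 5.39 on IM DNA, and PLT3 gave 2.36 in SAM replicate 2 and 2.66 in IM replicate 1. In the 3 remaining libraries, PLT3 SAM replicate 1 (2.95), PLT3 IM replicate 2 (3.36) and PLT7 SAM replicate 1 (3.63), the summit lay at the region 952 bp before SPL11.

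In SPL2, a summit 3243 bp after the start lay in a coding exon 130 bp past the miR156 site, and peaks of 8 PLT libraries covered that site. SPL2 was the only member whose miR156 site was covered by a peak of these libraries. PLT7 gave 2.03 and 2.16 on SAM DNA and 2.96 and 2.77 on IM DNA, and PLT3 gave 2.33 in SAM replicate 1 and 2.37 and 2.11 on IM DNA. The peak had no motif match above threshold. A further region 1103 bp past the SPL2 end, reproducible with PLT3 on IM DNA, gave 2.87 and 2.64 there and 2.23 and 1.88 on SAM DNA, and it lay 844 bp before the start of AT5G43260. Its summit lay outside the SPL2 window, which the peak entered only by its edge. The PLT3 call of SPL2 on IM DNA rested on this region alone. At the SPL2 start itself, 129 bp upstream, peaks of PLT3, PLT5 and PLT7 libraries overlapped GFP peaks of 3 libraries, with 7 to 12 stacked GFP fragments, and no dataset was reproducible there.

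SPL15 had the highest mean enrichment among the 6 member regions that all 8 libraries held. Its summit lay in intergenic sequence 674 bp before the gene start. PLT3 gave 3.97 and 3.05 on SAM DNA and 3.23 and 3.26 on IM DNA. PLT7 gave 6.27 and 6.08 on SAM DNA and 5.76 and 5.69 on IM DNA. The 4 PLT7 libraries averaged 5.95 ± 0.273 (SD, n = 4), above 72.4% of the 12075 regions, and the 4 PLT3 libraries averaged 3.38 ± 0.407 (SD, n = 4). These SDs span both DNA sources and are not replicate spreads. With PLT7 both SAM values lay above both IM values. The window of 4 genes held this peak, SPL15 having the nearest start. A second SPL15 region 1845 bp upstream was reproducible with PLT7 on IM DNA (3.19 and 2.87) and lay in the 5′ untranslated exon of AT3G57930.

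SPL9, the closest relative of SPL15, had 1 reproducible region, 1127 bp before its start in intergenic sequence. Its PLT7 enrichment was 2.20 and 2.52 on SAM DNA and 2.25 in IM replicate 1, and PLT3 gave 2.47 in SAM replicate 1 and 2.24 and 2.45 on IM DNA. The PLT7 values at SPL9 thus lay between 2.20 and 2.52, where those at SPL15 lay between 5.69 and 6.27.

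SPL6 held a promoter peak 612 bp before its start, intergenic and called in all 4 PLT3 and PLT7 datasets. PLT3 gave 3.65 and 3.13 on SAM DNA and 2.76 and 2.50 on IM DNA, with SAM above IM. PLT7 gave 4.28 and 3.86 on SAM DNA and 5.68 and 4.07 on IM DNA, where the tissues overlapped. The SPL6 coding exon held a weaker region 1298 bp after the start, reproducible with PLT7 on SAM DNA at 2.68 and 3.04, with a motif match of 10.3 bits.
SPL6 exon, chr1:26006352-26006381, plus strand: taagcttCTTCGCACCTCTCAAGgtactca
A region 115 bp past the SPL6 end was reproducible with PLT3 on IM DNA and PLT7 on SAM DNA, at 2.08 to 2.78 over the 7 libraries that held it. It lay in the 3′ untranslated exon of the next gene, CRC, which encodes the carpel regulator CRABS CLAW.

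Of the small members, SPL3 had a reproducible region 800 bp before its start, within the exon of the long non-coding RNA AT2G08630. PLT3 gave 2.51 and 2.73 on IM DNA and 2.60 in SAM replicate 1. PLT7 gave 3.51 in SAM replicate 2 and 4.14 in IM replicate 1, and was called in only 1 replicate of each tissue. PLT7 was thus higher where it was called, as it was at most shared sites.
SPL3 upstream, chr2:14304188-14304217, minus strand: ctaaagaCTACACATATCTCGAAgacactc
SPL4 had its region 2991 bp before the start, at the outer edge of the window. PLT7 gave 4.67 and 3.69 on SAM DNA and 3.94 and 3.83 on IM DNA, and PLT3 gave 2.33 and 2.56 on SAM DNA and 2.24 in IM replicate 1. A GFP IM peak of 5 stacked fragments overlapped it, which removed the PLT7 IM call.

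SPL5 had its region past the gene, with the summit 1309 bp beyond the gene end and 3267 bp from the start. The summit lay in the intron of AT3G15260, 372 bp after the start of that gene, and entered the SPL5 window only by the edge of the peak in 6 of the 8 PLT3 and PLT7 libraries. PLT3 gave 2.74 and 2.12 on SAM DNA and 3.89 and 3.74 on IM DNA. PLT7 gave 4.28 and 4.27 on SAM DNA and 6.78 and 5.31 on IM DNA. With either bait the IM libraries lay above the SAM libraries without overlap.

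SPL13 differed from the other members in that none of the 16 libraries held a peak in its window. The whole window lay in a tandem duplication on chromosome 5. Aligned with BLAST, the copy from 20564144 to 20597484 and the copy from 20597484 to 20630826 were 99.991% identical over 33343 aligned bp, and the second holds the SPL13B gene AT5G50670. Neither copy held a peak of any library, and the stretch without a peak ran over 69387 bp. Chromosome 5 had 3 peak-free stretches of at least that length, and 751 of the 27432 genes (2.74%) had no peak in their window. How reads that match both copies were treated was not given in the sources used here, and its part in the missing peaks was not tested, so the window shows only that no peak was called there.

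**Figure D3:**
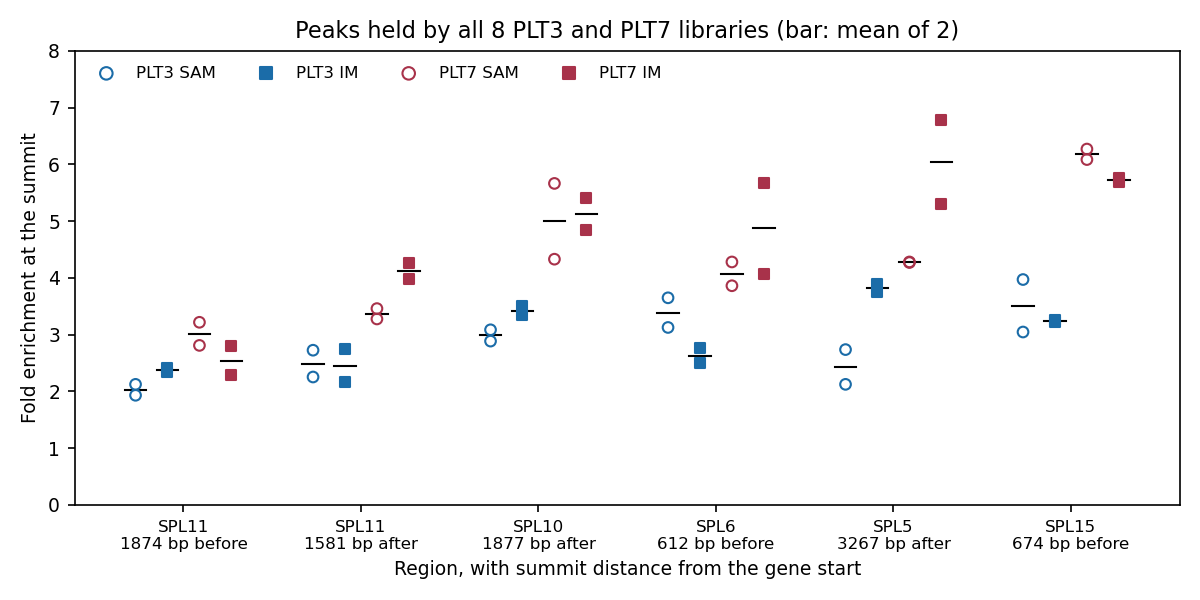
Fold enrichment at the summit (y axis, no units) in each library for the 6 regions held by all PLT3 and PLT7 libraries (x axis), with open circles for SAM, filled squares for IM, blue for PLT3, red for PLT7 and a bar at the mean of 2 replicates. SPL15 reaches 5.69 to 6.27 with PLT7, and the SPL5 squares lie above the SPL5 circles of the same bait. The region labelled SPL5 has its summit in the AT3G15260 intron, outside the SPL5 window.

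To ask whether PLT7 favoured any member over PLT3 once the general level of each library was set aside, each library was centred on its median log2 fold enrichment over the 12075 shared regions and the groups were compared with limma. One of the 6 member regions passed an adjusted p of 0.05, beside 37.0% of all regions. It was the SPL11 region 1874 bp upstream, in the AT1G27350 intron. There PLT7 was 0.33 lower than PLT3 on the log2 scale (SE 0.106, adjusted p = 0.0136 in limma). Its fold enrichments were 1.93, 2.12, 2.41 and 2.34 with PLT3 and 2.81, 3.22, 2.79 and 2.28 with PLT7. The region was among the weakest, above 3.22% of the 12075 regions in mean PLT3 enrichment and 4.79% in mean PLT7 enrichment. Only regions listed in all 8 libraries were compared, and what this does to the difference at weak regions was not tested. The adjusted p was 0.0895 without PLT3 SAM replicate 2, 0.114 without PLT7 SAM replicate 1 and 0.0616 without PLT7 IM replicate 2. Without the centring PLT7 was 0.33 higher there (adjusted p = 0.0108), since the uncentred difference between baits had a median of 0.65 over all regions.

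The other 5 regions did not pass, with centred differences of -0.09 at SPL6 (SE 0.103), -0.06 at the SPL11 exon (SE 0.109), -0.0034 at the SPL10 exon (SE 0.103), 0.08 at SPL5 (SE 0.103) and 0.16 at SPL15 (SE 0.102). Their adjusted p-values ran from 0.208 to 0.983. Uncentred, all 6 regions were higher with PLT7, by 0.33 to 0.82 on the log2 scale, beside 91.4% of all regions called. PLT5 had no summit in all 4 of its libraries at any member region, so no member could be compared between PLT5 and the other baits.

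The comparison of IM with SAM DNA used the same fit. One of 6 member regions passed, beside 1.37% of all regions. It was the region past SPL5, whose summit lay outside the SPL5 window, in the AT3G15260 intron 372 bp after the start of that gene. The region can therefore be counted for AT3G15260 rather than SPL5. It was 0.48 higher on IM DNA on the log2 scale (SE 0.103, adjusted p = 0.0192 in limma), a 1.39-fold difference. This estimate was larger than at 99.96% of the 12075 regions. Split by bait, the difference was 0.60 with PLT3 and 0.35 with PLT7, and every IM library exceeded every SAM library of the same bait. With the baits averaged for each tissue replicate, 2 SAM values against 2 IM values, the estimate was the same and the adjusted p was 0.0156. The call was lost without PLT3 SAM replicate 2 (adjusted p = 0.116), PLT3 IM replicate 1 (0.0554) or PLT7 IM replicate 1 (0.115), with estimates between 0.41 and 0.54 over all 8 libraries left out in turn. Whether baits with the same replicate number shared a DNA preparation is not stated, so the libraries of 1 tissue may not be independent.

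The other 5 regions did not pass between tissues, with differences of -0.21 at SPL15 (SE 0.102), -0.16 at SPL6 (SE 0.103), -0.11 at the SPL11 upstream region (SE 0.106), 0.03 at the SPL11 exon (SE 0.109) and 0.02 at the SPL10 exon (SE 0.103). The tissue difference was also compared between the baits as an interaction. None of the 6 member regions and none of the 12075 regions (0%) passed in limma. There 532 of the 12075 regions had an unadjusted p below 0.05, a share that is itself below 0.05. Among these was the SPL6 promoter, where IM minus SAM was -0.43 with PLT3 and 0.10 with PLT7 (unadjusted p = 0.0136, adjusted p = 0.9995 in limma). Another was the SPL11 upstream region, with 0.16 for PLT3 and -0.39 for PLT7 (unadjusted p = 0.013, adjusted p = 0.9995 in limma). Since no region passed, neither region is called as having a tissue difference that depends on the bait.

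**Figure D4:**
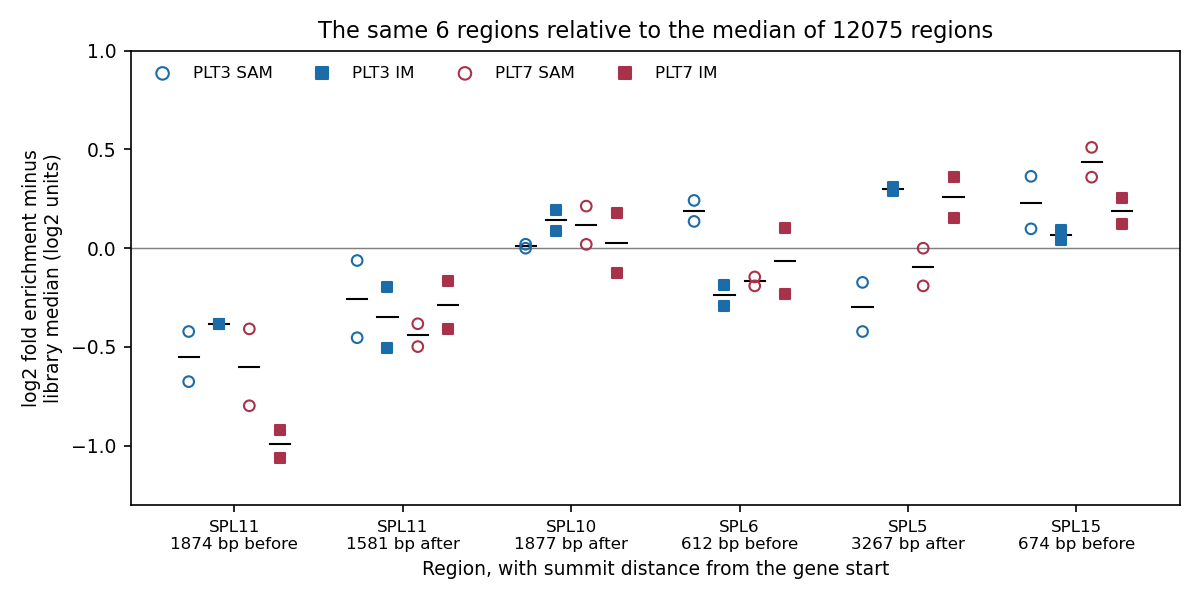
The log2 fold enrichment of the same 6 regions after subtracting each library's median over 12075 regions (y axis, log2 units), with symbols as in the plot of fold enrichment and a line at 0 for the median region. At the region labelled SPL5, with its summit in the AT3G15260 intron, the IM squares lie above 0.15 with both baits. The SAM circles there lie at or below 0 with both baits. The SPL11 region 1874 bp before the start lies below 0 in all 8 libraries.

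To describe the DNA under the summits, a 16-base motif was built from 600 PLT7 IM summits on chromosome 4, which holds no member, with the consensus NNNCNCGNNTNCCNAG and its reverse complement CTNGGNANNCGNGNNN, where N stands for a position without a majority base. It was scored on both strands within 50 bp of each summit at a threshold that 5% of background windows reached. Of the 16 reproducible member regions 11 held a match, where 46.0% of 19590 PLT7 IM summits on the other chromosomes did. SPL2 (both regions), SPL4, the SPL6 region past the gene end and the SPL15 region 1845 bp upstream held none. At the threshold that 1% of background windows reached the count was 3 of 16 (18.8%), beside 20.3% of summits. Within 100 bp it was 6 of 16 (37.5%), beside 36.1%. The threshold for these wider windows was reset to 9.65 bits, again reached by 5% of background windows, so the count could fall. At these settings the member share lay close to that of all summits. The matches of SPL5, SPL6 and SPL15 printed above lay within 4 bp of the summit, as did that of the SPL11 exon, and the SPL10 match lay 5 bp away. The match of the SPL11 upstream region lay 41 bp from the summit, with a score of 8.67 bits just over the threshold of 8.61 bits. A match describes the letters in the window and does not show binding.

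By place, 4 of the 16 reproducible regions lay in coding exons, in SPL2, SPL6, SPL10 and SPL11 (25.0%), where 40.0% of reproducible PLT7 SAM summits and 42.8% of PLT7 IM summits did. With PLT3 the share was 39.4% on SAM DNA and 44.0% on IM DNA. The members' regions were thus spread over exons, intergenic promoters and neighbouring genes, and for 11 of all 22 regions the nearest gene start was that of the member.

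PLT5 peaks were few and weak at these genes. None appeared in both replicates of a tissue. In IM replicate 1 PLT5 had a peak at the SPL10 exon (2.03, from 60 stacked fragments), at the SPL11 exon (1.76) and at the SPL11 region 1874 bp upstream (1.70), which are 3 of the regions held by all PLT3 and PLT7 libraries. PLT5 SAM replicate 2 and IM replicate 2 had a peak past the SPL2 end (2.06 and 1.83). At SPL4 PLT5 SAM replicate 2 had the highest PLT5 value at any member (2.10), in the region 2991 bp upstream, and IM replicate 2 had a peak past the gene end (1.80). PLT5 IM replicate 1 had a peak at the SPL2 start (1.89). A GFP peak of at least 1 library overlapped each of these 3 peaks. SPL3, SPL5, SPL6, SPL9, SPL13 and SPL15 had no PLT5 peak. The lowest fold enrichment that PLT5 libraries called at their background was 1.49 to 1.61, so a PLT5 peak below that level would not be listed.

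The control libraries held 11 peaks in the windows, 5 at SPL2, 4 at SPL4 and 1 each at SPL5 and SPL9, and none at SPL3, SPL6, SPL10, SPL11, SPL13 or SPL15. Their summits rested on 3 to 12 stacked fragments. The background of the whole library was 0.42 to 0.71 fragments in the GFP libraries, compared with 16.1 to 36.3 fragments in the PLT libraries, and the local background under the 11 GFP summits was 0.42 to 0.937 fragments. At the background of its library a GFP peak was listed from a fold enrichment of 2.74 to 3.08, whereas PLT libraries listed peaks from 1.39, so the absence of a GFP peak limits the control only down to that level. In all, nuclear peaks numbered 23228 to 32116 in PLT3 and PLT7 libraries, 3837 to 10427 in PLT5 libraries and 5026 to 9933 in GFP libraries.

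Other genes of the age pathway were counted by the same rule, for which the shares of all protein-coding genes were 59.4%, 64.6%, 71.9% and 78.0% in PLT3 SAM, PLT3 IM, PLT7 SAM and PLT7 IM, in a median window of 6078 bp. Of 6 SPL genes without a miR156 site, 4, 5, 5 and 6 were called in PLT3 SAM, PLT3 IM, PLT7 SAM and PLT7 IM, and SPL8, SPL12, SPL14 and SPL16 were called in all 4. Their windows were longer than the median, at 6279 to 8971 bp. Of 8 miR156 precursor genes, 2, 3, 4 and 4 were called, MIR156B in all 4 with a PLT7 enrichment of up to 6.11. Of 5 miR172 precursor genes, whose product acts opposite to miR156 during ageing, 2, 1, 1 and 3 were called, MIR172D in all 4 with up to 6.51. The windows of these short precursors were shorter, at 4095 to 4183 bp, so their counts cannot be set beside those of protein-coding genes.

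Of 6 AP2-like floral repressor genes that miR172 targets, 4, 2, 6 and 5 were called, in windows of 6323 to 8055 bp, with TOE3 and SNZ in all 4 datasets. The highest PLT7 enrichments of this list were 8.28 at TOE1, called in 2 datasets, and 6.67 at SMZ, called in 3. Of 5 flowering genes that SPL proteins act on, 4, 3, 5 and 5 were called, in windows of 6742 to 8056 bp, with FUL and AGL42 in all 4, while SOC1 and LFY were called in 3 and reached 6.90 and 7.26 with PLT7. With 5 or 6 genes a list, these counts are given only beside the shares of all genes and were not tested. No list had a PLT5 call. Over all 10 members the median number of datasets with a call was 3, beside 4 for all protein-coding genes.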

How the data were processed

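For each library the authors deposited a MACS3 peak list, called per library without a control, with a q-value limit of 0.1 and a maximum gap of 100 bp. The submitters' processing notes name fastp 0.23.2, BWA 0.7.17, SAMtools 1.15, MACS3 3 and TAIR10. The fold enrichment as deposited is a ratio to the local background. The −log10 p-value and −log10 q-value were computed by the authors, and the deposited score is derived from the q-value. Another deposited column gives the summit offset. IDR filtering and GFP removal were not part of these lists and were redone here.

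Stacked fragments were solved from fold enrichment and p-value, and came out whole, within a relative misfit of 0.0001, for 100% of nuclear peaks with a −log10 p-value below 250. A re-implementation of IDR ranked peaks by fold enrichment and kept those below 0.05, removing peaks with 1 bp of GFP overlap in the same tissue. Regions with a summit in all 8 PLT3 and PLT7 libraries were compared on the log2 scale, on values made from the deposited folds, with limma 3.58.1 in R 4.3.3 (lmFit and eBayes, Benjamini-Hochberg over 12075 regions). On simulated data for PLT7 minus PLT3 over 12075 regions, 99% of 200 regions changed by 1 on the log2 scale were recovered and 3.41% of calls were false. That change is larger than any difference at the member regions, and the recovery of smaller differences was not simulated. Alignments used BLAST 2.17.0, and figures matplotlib 3.10.9 in Python 3.11.15 with pandas 2.3.3 and SciPy 1.17.1. Replicates are separate pools of 500 meristems and shared at most 0.078% of peak intervals exactly. Sequences came from the RefSeq copy of TAIR10.1.

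All 10 members are named, every region reproducible in at least 1 dataset is described, and of the other lists genes called in at least 4 of 6 datasets, or at most the 3 with the highest PLT7 enrichment, are named. The members and lists were chosen with earlier results of these data known. Averaging the baits per tissue replicate was added after seeing the data. The alternatives tried were other IDR and q-value settings, another window, other GFP removal, uncentred values, merged regions, a replicate block, other motif settings and leaving out each replicate.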

Additional observations from a re-analysis of the deposited data

Results flagged for a closer look

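PLT5 peaks at SPL genes entered no comparison, because none was reproducible, yet 5 of them lay where no GFP library had a peak. They were listed at a fold enrichment of 2.06 (SAM replicate 2) and 1.83 (IM replicate 2) past the end of SPL2, and, all in IM replicate 1, at 2.03 in the SPL10 exon, 1.76 in the SPL11 exon and 1.70 upstream of SPL11. These values lie below the 2.74 to 3.08 from which GFP libraries listed a peak at their background, so a GFP signal of the same height would not have been listed.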

How the results depend on the processing

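The number of members called moved by more than 1.5 times with the window of 1500 bp upstream to 500 bp downstream of the start, to 3 (PLT3 SAM), 5 (PLT3 IM), 4 (PLT7 SAM) and 3 (PLT7 IM). With the peaks of 1 replicate alone the counts ranged from 6 to 9 for PLT3 SAM, 8 to 8 for PLT3 IM, 0 to 2 for PLT5 SAM, 1 to 2 for PLT5 IM, 8 to 8 for PLT7 SAM and 6 to 8 for PLT7 IM, while the share of all genes rose too, to 72.9% and 83.9% for PLT3 SAM, 15.9% and 26.4% for PLT5 SAM, 38.2% and 39.5% for PLT5 IM, and 78.3% to 84.8% in the 3 others. Between PLT7 and PLT3 the 1 member region called became 6 of 6 uncentred and 2 of 8 with merged peaks, where the coding exon of SPL2 was added, and 0 to 1 with a library left out. The uncentred difference was positive and opposite in sign to the centred one at the SPL11 upstream region (0.33), the SPL11 exon (0.60), the SPL10 exon (0.66) and SPL6 (0.57), and merged regions gave 0.0318 at the SPL10 exon. With each library left out, PLT7 minus PLT3 ran from -0.0794 to 0.0726 at the SPL10 exon, from -0.157 to 0.0382 at the SPL11 exon and from -0.43 to -0.23 at the SPL11 upstream region. IM minus SAM ran from -0.0542 to 0.0978 at the SPL10 exon, from -0.0664 to 0.129 at the SPL11 exon and from 0.41 to 0.54 at SPL5, with 0 to 1 member regions called. The interaction at SPL15 ran from -0.214 to 0.0521. Motif matches moved to 3 of 16 at the 1% threshold and to 6 of 16 within 100 bp, where the threshold was reset. They were 10 of 14 and 11 of 16 with 1 replicate left out. In 72 of the 90 alternatives for a count, the count stayed within 1.5 times. The 72 include comparisons of 0 with 0, for PLT5 and for the interaction, which say little about stability. With replicate number as a block, the same 2 regions were called (adjusted p = 0.00713 at the SPL11 upstream region and 0.011 at SPL5 in limma), with 4777 regions called between baits and 276 between tissues, against 4462 and 165 without the block. Same-numbered deviations correlated weakly and positively, at 0.036 to 0.145, which cannot show whether same-numbered libraries shared a DNA preparation. PLT5 comparisons were not run, because none of the 1649 regions held by all 12 PLT libraries was a member region. The cause of these changes was not tested.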
